A study of Rattus norvegicus with 180 samples.

Results

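The thyroid gland was represented by 3 arrays, 1 from each of 3 saline-perfused rats, among the 3 arrays of each of 55 organs of these rats and 180 arrays in all. The arrays were chosen by the organ named in their titles, and the comparison was with the other 54 organs of the same rats, each organ averaged over its 3 arrays first. The study hybridised total RNA of rat organs to a microarray of mature miRNAs, with 1 dye and 1 RNA sample per array. All arrays compared here came from male Sprague-Dawley rats of 10 weeks, numbered 4, 5 and 6, which had been flushed with saline before the organs were taken with no other treatment given in the labels. The 15 arrays of 3 rats that were not perfused held no thyroid. They entered 1 alternative fit and the choice of the miRNAs used for scaling. The thyroid samples were dissected glands, so that follicular cells, C cells, vessels and any adjoining tissue share each value. In such samples more cells of a type and more RNA per cell cannot be told apart.

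A microRNA is a short RNA that lowers the output of matching mRNAs, which it recognises mainly through its seed near the 5′ end. The thyroid consists of follicles, whose epithelial cells make thyroid hormone, and of scattered C cells, which secrete calcitonin. The gland lies on the trachea, close to the esophagus and under the strap muscles of the neck, and the parathyroid glands adjoin it. Skeletal muscle and cartilage each have a few miRNAs at very high level, so that their signal in a gland can be read directly. The arrays held no mRNA, and the identity of the gland could therefore not be checked through thyroglobulin or thyroid peroxidase. It was examined only through the miRNAs of tissues around it.

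The mature sequences of the miRNAs on which the results turn are given below from RefSeq (build GRCr8), 5′ to 3′, with bases 2 to 8, the seed, in capitals. Array names without an arm were matched to the arm that later carried the name, and 15 of 19 miRNAs looked for were matched. The first pair shares a seed, and thyroid took the third and the sixth place among the organs for it. The following 4 were higher in thyroid than in the other organs and share no seed, the next 3 belong to epithelium, and the last 6 belong to skeletal muscle and to cartilage.
miR-221: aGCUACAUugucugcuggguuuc
miR-222: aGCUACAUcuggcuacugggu
miR-135a: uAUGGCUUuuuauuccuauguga
miR-204: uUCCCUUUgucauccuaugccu
miR-375: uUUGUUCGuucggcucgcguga
miR-7a: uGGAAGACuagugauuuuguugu
miR-200c: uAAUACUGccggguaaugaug
miR-141: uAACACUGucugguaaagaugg
miR-205: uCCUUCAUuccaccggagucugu
miR-1: uGGAAUGUaaagaaguguguau
miR-206: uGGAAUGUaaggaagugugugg
miR-133a: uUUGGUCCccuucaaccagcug
miR-133b: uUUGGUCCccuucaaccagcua
miR-140: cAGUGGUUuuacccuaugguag
miR-140*: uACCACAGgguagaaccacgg
miR-1 and miR-206 share their seed and differ at 3 of 22 positions, and miR-133a and miR-133b share theirs and differ at 1 of 22. How far the probes of such close pairs detect each other was not tested. miR-221 (X, 6023246 to 6023268, plus strand) and miR-222 (X, 6022682 to 6022702, plus strand) lie side by side on 1 chromosome.

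Values are scaled signals, in which every array was brought to the same 75th percentile of the miRNAs detected everywhere, and differences are on the log2 scale. Detection on an array required that more than 50% of the used spots of a miRNA had a signal well above background by the scanner's flag. Between 86 and 244 miRNAs were detected on an array of perfused rats, with a median of 164, and the thyroid arrays of rats 4, 5 and 6 had 149, 154 and 145. A miRNA was tested if some organ showed it on all of its 3 arrays, which left 345, and limma was used, with Benjamini-Hochberg adjustment over all 345 and a threshold of 0.05. The thyroid arrays lay on 3 different slides and were scanned on 3 different days. On 8 arrays, among them the limb muscles titled rat 5, title and source name gave different rats, and the titles were followed. The labels do not say that organs were sampled more than once, so the 3 rats are the replicates.

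Thyroid stood high among the organs for a few miRNAs and highest for none with the scaling used. Of the 140 tested miRNAs detected on all 3 thyroid arrays, 0 had their highest organ mean in thyroid, and the median place of thyroid was 22 of 55. Counted for each organ over the tested miRNAs detected on all 3 of its own arrays, such peaks numbered 0 in 13 of the 55 organs and reached 47 in pancreas. The percentile used for scaling was lowest on the pancreas arrays, at 120.7, 90.5 and 67.99 in rats 4, 5 and 6. On the thyroid arrays it was 2161, 1755 and 1640. Scaling thus raised the pancreas signals most, and how far this made the 47 peaks was not tested. Thyroid took the second place for miR-335 and the third for miR-221, and was among the first 10 organs for 7 miRNAs. With the other scalings miR-221 or miR-135a moved to the first place: 3 miRNAs peaked in thyroid when arrays were scaled over all miRNAs of the design (miR-221, miR-135a and miR-148b-3p), 2 in the authors' table (miR-221 and miR-135a) and 1 after quantile normalization (miR-135a). After normexp correction the places were lower, with miR-335 at 3, miR-221 at 4, miR-135a at 13 and miR-222 at 17. Across the 345 miRNAs the thyroid profile correlated most with Harderian gland (r = 0.941), seminal vesicle (r = 0.937) and prostate_other (r = 0.926), as a description over miRNAs that are not independent.

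miR-335, which is encoded within the imprinted gene Mest, gave 498, 529 and 460 in the thyroid of rats 4, 5 and 6. Pituitary gland was higher at 2256 ± 197 (SD, n = 3), and its arrays did not overlap those of thyroid. Thalamus followed at 415 ± 28.8 (SD, n = 3), below every thyroid array. White adipose tissue came next at 251 ± 24.7 (SD, n = 3). The 3 thyroid values lay close together and between those of the pituitary and of every remaining organ. Trachea was at 18.5, 17.7 and 32.9, the adrenal gland at 65.5, 76.3 and 70.5, and thymus was not detected on any array. Against the mean of the other 54 organs miR-335 was 19.7-fold higher (log2 difference 4.30, SE 0.28, limma adjusted p = 2.43e-27), and the difference was 4.20, 4.38 and 4.32 within the 3 rats. It was 4.14-fold after normexp correction. Against the 7 other organs on the slide of each thyroid array, a set that differed between slides, it was 5.27, 5.52 and 5.38.

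miR-221 and miR-222 are encoded together and target, among others, the cell cycle inhibitor p27. miR-221 gave 337, 424 and 372 in thyroid. Hippocampus (617 ± 296) and cerebral cortex (512 ± 140; SD, n = 3 each) had higher means, but their arrays overlapped the thyroid range, so the first 3 places are not separated beyond their spread. Ventral prostate, the fourth, was at 246.5 ± 38.7 and lay below every thyroid array. The difference from the other 54 organs was 2.36 (SE 0.20, limma adjusted p = 3.49e-20), or 5.13-fold. miR-222 was lower in signal, at 50.7, 60.1 and 45.7, and thyroid took the sixth place. The fourth was pancreas, where miR-222 was not detected, and the arrays of testicle, bone marrow, epididymis and trachea overlapped thyroid. The miR-222 difference of 1.98 (SE 0.27, limma adjusted p = 1.69e-10) had the direction of that of miR-221. It was 0.39 with an adjusted p of 0.74 after normexp background correction. miR-146b, which with this pair is known from papillary thyroid tumours, gave 56.5, 46.0 and 50.3 in the normal gland, where the median of the other organs was 51.6, and it was not past the threshold (log2 difference -0.13, adjusted p = 0.498). Scaled over all miRNAs of the design, miR-146b was higher by 0.62. The other strand miR-221* was not detected on any thyroid array.

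miR-135a and miR-204 were also high. miR-135a was detected on 49 arrays of the other organs and gave 94.4, 99.7 and 55.0 in thyroid, where it took the fourth place. Thalamus (95.7, 117.5 and 192), pituitary gland (123 ± 41.8) and epididymis (98.0 ± 45.8; SD, n = 3 each) stood above it with overlapping arrays. Its difference from the other 54 organs was 3.18 (SE 0.31, limma adjusted p = 7.08e-17), and after normexp correction it was 0.76 with an adjusted p of 0.132. Rat 6 was the lowest of the 3 but still above the esophagus and thymus, where miR-135a was not detected. Its relative miR-135b was at 13.9, 11.0 and 14.6 (difference 0.79, adjusted p = 0.0026), detected on 2 of the 3 arrays, and turned direction with a higher floor. miR-204, encoded in an intron of Trpm3 and best known from eye epithelium, gave 866, 840 and 959. Eyeball, its highest organ, was at 13959 ± 1071 (SD, n = 3), while pituitary gland, epididymis and spinal cord overlapped thyroid. The difference was 2.87 (SE 0.27, limma adjusted p = 9.35e-18). Its relative miR-211 was not detected in thyroid.

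**Figure D1:**
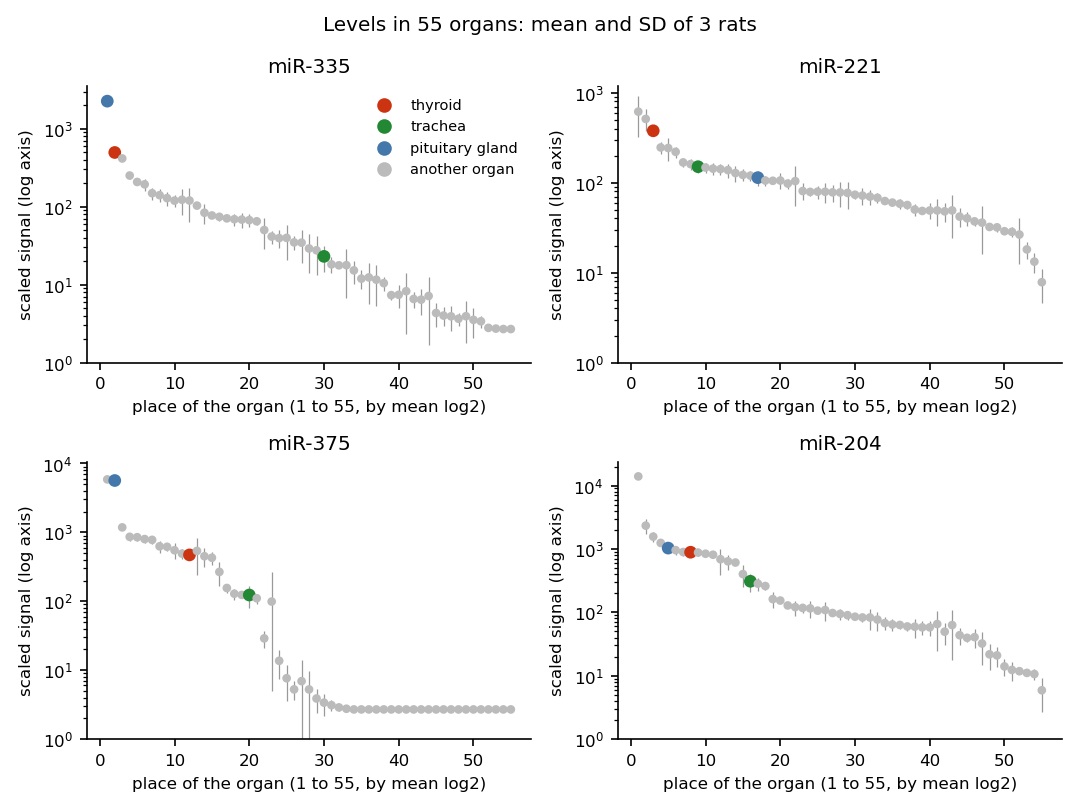
Mean scaled signal (log axis) of 4 miRNAs in 55 organs placed by their mean log2 signal, with bars of 1 SD over 3 rats, the lower bars stopping above 0. Thyroid (red) takes the second place for miR-335 at a mean of 496, the third for miR-221, the twelfth for miR-375 and the eighth for miR-204, with trachea (green) below it in each.

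Against the other 54 organs 58 of 345 miRNAs were higher in thyroid (16.8%) and 174 were lower (50.4%). Of the 58 higher ones, 55 were detected on all 3 thyroid arrays, and all 58 were above the mean of the other organs in each of the 3 rats. Of the 174 lower ones, 22 were detected on all 3 thyroid arrays, 6 on some and the rest on none. The lower count is thus mostly one of miRNAs that no thyroid array showed. The median difference over all 345 miRNAs was -0.35 and rose to 0.05 when arrays were scaled over all miRNAs of the design. With that scaling 136 miRNAs were higher and 119 lower, so that the share of calls in the higher direction went from 25% to 53.3%. It was 39.6% after quantile normalization and 34.5% in the authors' table, and after normexp correction 18 were higher and 15 lower. Without the thyroid array of rat 5, 49 were higher and 153 lower, and 49 and 148 of these were among the calls with it.

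The miR-200 family of epithelium was among the largest differences upward, together with miR-375 (4.41) and miR-335 (4.30). miR-200c_v15.0, an older version of the miR-200c probe, led with 2455, 2830 and 3237 (log2 difference 4.70, SE 0.34, limma adjusted p = 9.23e-24). The miR-200 family holds cells in the epithelial state by repressing Zeb1 and Zeb2. miR-200b (1742, 2086 and 2203), miR-200a (1099, 1438 and 1197) and miR-429 (733, 817 and 892) had differences of 4.37, 4.01 and 3.91. miR-141 and miR-200c, which are transcribed together, were higher by 3.62 and 3.27. Thyroid was not high among epithelial organs, with places from 16 to 18 for these 6 miRNAs. Of the 8 tested members of the epithelial list 7 were higher and 1, miR-200a*, was lower, beside 16.8% higher and 50.4% lower over all tested, with a median difference of 3.77 beside -0.35. miR-200b* (0.53), 1 of the 7, and miR-200a* were not detected on any thyroid array. The differences depended on the background treatment: after normexp correction miR-200b was 2.30, miR-200a 1.91, miR-429 1.74, miR-141 1.52 and miR-200c 0.99, all still past the threshold. On the slide of each thyroid array, against 7 other organs, miR-200b was 1.31, 1.94 and 0.63 and miR-200a 0.70, 1.59 and 0.39. The 7 organs differed between slides, so these values do not compare the rats directly.

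miR-375, a miRNA of neuroendocrine and pancreatic islet cells, gave 484, 513 and 416 in thyroid. Pancreas (5873 ± 451) and pituitary gland (5659 ± 614) were about an order of magnitude higher, with parotid gland at 1181 ± 115 (SD, n = 3 each). Thyroid took the twelfth place, and its arrays overlapped those of rectum, duodenum and glandular stomach. Trachea had 163, 75.5 and 131, and it was not detected in the esophagus or thymus. The difference from the other 54 organs was 4.41 (SE 0.38, limma adjusted p = 1.03e-19), or 21.3-fold. Since many organs did not show miR-375, this fold depends on the floor: it was 10.0-fold with a floor 4 times as high and 3.57-fold after normexp correction, and 119-fold against the median organ. miR-7a, a further miRNA of endocrine cells and neurons, gave 145, 166 and 160 and was higher by 1.17 (SE 0.17, limma adjusted p = 3.96e-09). After normexp correction miR-7a was higher by 0.33 with an adjusted p of 0.77. It ranked nineteenth, far from pituitary gland at 21840 ± 1193 (SD, n = 3). miR-7b, miR-7a-1* and miR-7a-2* were not detected on any thyroid array. Of the 5 tested members of this list 2 were higher and 1, miR-7a-2*, was lower, beside 16.8% and 50.4% of all tested, with a median of 0.43.

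miR-205 and miR-203, which are abundant in squamous and basal epithelium, were higher too. miR-205 gave 304, 272 and 216 and differed by 3.76 (SE 0.30, limma adjusted p = 1.57e-21). Its version miR-205_v15.0 differed by 3.70. After normexp correction miR-205 differed by 1.29 (2.45-fold) and with a floor 4 times as high by 2.86. Against the 7 other organs on its slide miR-205 was 1.70, 1.13 and -0.05 in rats 4, 5 and 6, so not higher on the slide of rat 6. The slides held different organs: that of rat 6 included esophagus, at 1196 for miR-205, and that of rat 4 lymph nodes instead. These slide values therefore do not compare the rats directly. miR-203 gave 191, 166 and 113, beside 23.1, 16.1 and 21.6 in trachea and 4725, 2012 and 7927 in esophagus. As a mean of the same-rat ratios, miR-205 in thyroid was 129% ± 13.9 of trachea (SD, n = 3), its version miR-205_v15.0 90.6% ± 8.10 and miR-203 795% ± 255. Against esophagus the ratios varied between rats, at 36.1%, 76.4% and 18.0% for miR-205 and 4.05%, 8.26% and 1.43% for miR-203, with means of 43.5% and 4.58%, and of 27.1% and 2.74% without rat 5. Of the 5 tested members 4 were higher, beside 16.8% of all tested, with a median of 2.20.

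**Figure D2:**
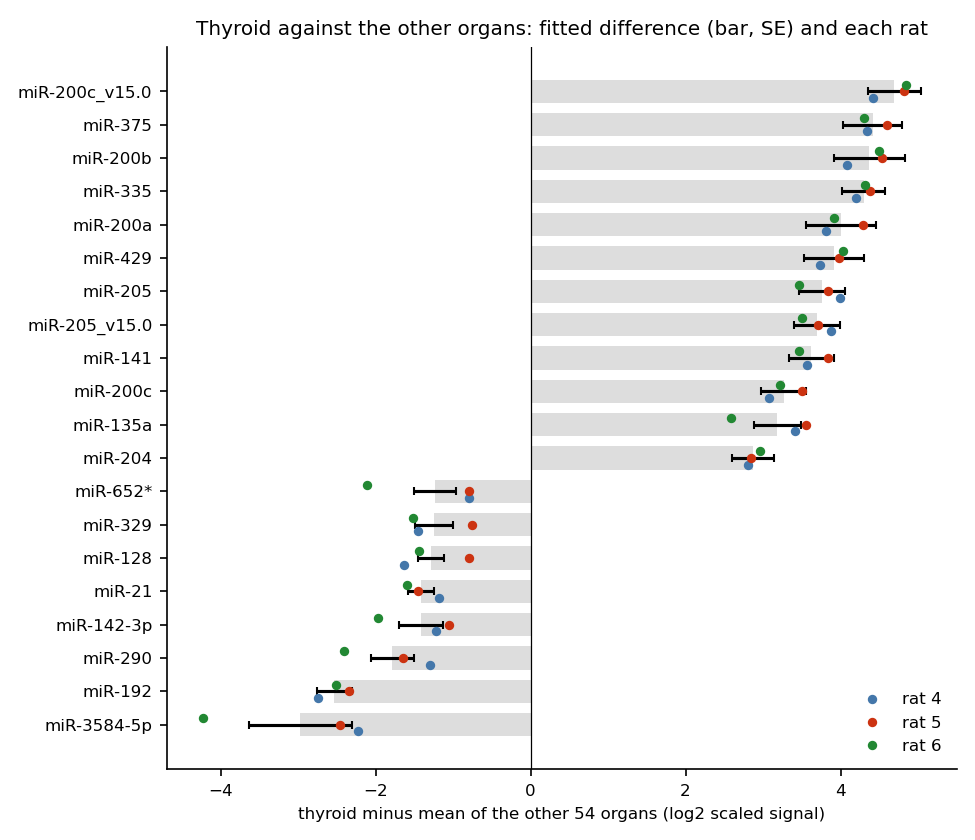
Fitted difference between thyroid and the mean of the other 54 organs (bars, log2 scaled signal, error bars 1 SE) with the difference within each rat (points), for the 12 largest called upward among miRNAs detected on all 3 thyroid arrays and the 8 largest called downward among those detected on at least 50% of the other arrays. The upward bars run from 2.87 to 4.70 and the points of the 3 rats lie close together, while the downward bars run from -1.23 to -2.97, those of miR-3584-5p, miR-192, miR-290 and miR-329 resting on thyroid values below detection.

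Downward, the 8 largest differences among miRNAs detected on at least 50% of the other arrays began with miRNAs that thyroid lacked. miR-3584-5p, the intestinal miR-192 and miR-290 were not detected on any thyroid array, and the mean of the other organs was at least 3.86-fold, 3.76-fold and 1.27-fold higher. Their fitted differences (-2.97, -2.53 and -1.78) rest on thyroid values below detection, and so does their order among the 8. miR-142-3p, made in blood cells, gave 92.4, 116 and 60.9 (difference -1.42, SE 0.28, limma adjusted p = 9.60e-06). miR-21, raised in many growing or injured tissues, gave 1254, 1123 and 1031 and was lower by 1.41 (SE 0.17, limma adjusted p = 1.62e-12). Only 12 organs had a lower mean of miR-21 than thyroid, and the neighbouring places (medulla oblongata, soleus muscle and optic nerve) overlapped it. Thymus stood at 6796 ± 467 and trachea at 3144 ± 84.0 (SD, n = 3 each). miR-128, abundant in brain, gave 38.1, 63.0 and 39.0 (difference -1.29). Against the median of the other organs the differences of miR-142-3p and miR-128 were only -0.60 and -0.21. miR-329 was not detected in thyroid and was lower there by at least 1.52-fold, and miR-652* (-1.23) was detected on 2 of the 3 arrays. The calls of miR-329 and miR-652* were lost with scaling over all miRNAs (adjusted p = 0.0866 and 0.0611), and after normexp correction those of miR-3584-5p, miR-290, miR-329 and miR-652* were lost.

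The signal of skeletal muscle stood on 1 of the 3 thyroid arrays. miR-1, which drives muscle differentiation, gave 13.1 in rat 4, 3895 in rat 5 and 18.0 in rat 6. miR-133b gave 30.2, 7221 and 40.1. miR-206, which among muscles is particular to skeletal muscle, gave 325 in rat 5 and was not detected in rats 4 and 6. The array of rat 5 was thus above the other thyroid arrays by 254-fold for miR-1 and by 208-fold for miR-133b. miR-133a (175) and miR-133a* (157) were also detected in rat 5 alone. miR-499 gave 22.6, 31.5 and 16.8, the last not detected, and rat 5 was only 1.62-fold above the other thyroid arrays. Limb muscle showed miR-499 on 6 of 9 arrays, with means of 105, 210 and 145 in rats 4, 5 and 6. miR-1* and miR-208b-3p were not detected on any thyroid array, but limb muscle itself showed them on 0 and 1 of 9 arrays. The heart miRNAs miR-208, miR-208_v15.0 and miR-208* were not detected on any either. The summed signal of the 8 muscle miRNAs was 81.9, 11814 and 91.2 in rats 4, 5 and 6.

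Set against the limb muscles of the same rat, the 5 members detected on all 9 limb muscle arrays lay between 5.67% and 10.95% in rat 5. miR-1 reached 7.87% of the mean of femoris, gastrocnemial and soleus muscle, miR-133b 10.95%, miR-133a 9.54%, miR-133a* 8.07% and miR-206 5.67%. In rats 4 and 6 miR-1 was at 0.0249% and 0.037% and miR-133b at 0.0413% and 0.06%, and the other 3 were not detected there. Set to the lowest signal of a detected miRNA on the same array, those 3 could reach between 0.141% and 1.03%. The median over the 5 was 8.07% in rat 5, and the median of the means over the 3 rats was 2.79%. The limb muscle arrays titled rat 5 were among the 8 whose labels give 2 rats.

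With all 6 tested muscle miRNAs, 0 passed the threshold against the other 54 organs by limma, with differences from -0.09 to 0.76 (0 at an unadjusted p under 0.05). Without rat 5 the differences were -2.66 for miR-133b (adjusted p = 0.003), -2.04 for miR-133a (0.00167), -2.09 for miR-206 (0.0124), -1.80 for miR-133a* (0.00355) and -1.91 for miR-1 (0.0597). Of the 4 that passed, miR-133b was detected in rats 4 and 6. miR-133a, miR-206 and miR-133a* were at the floor there and gave no bound above 1, so their values depend on the floor. The differences of miR-1, miR-206 and miR-133a* changed sign without rat 5. miR-499 was 0.24 without rat 5 (adjusted p = 0.564). Without rat 4 miR-1 passed at 2.20 (adjusted p = 0.0428), and with the striated muscle organs left out of the reference miR-1 (2.24), miR-133a* (1.29) and miR-499 (0.90) passed. miR-499 also passed with scaling over all miRNAs (1.19), quantile normalization (0.88) and in the authors' table (0.94). The upward difference of miR-1 from pituitary and adrenal gland (4.81, adjusted p = 1.02e-05) was 2.15 with an adjusted p of 0.0773 without rat 5.

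Of 159 tested miRNAs detected on at least 1 thyroid array, rat 5 was the highest of the 3 for 87 (54.7%), beside 35 for rat 4 and 37 for rat 6, and it was over 2-fold above the mean of the others for 8. These were the 5 muscle miRNAs, the red cell miRNA miR-451 (71.6, 164 and 17.2), miR-494_v15.0 and miR-153. Over the 345 miRNAs rat 5 correlated with rats 4 and 6 at r = 0.963 and 0.962, and rats 4 and 6 with each other at 0.995. Over the 339 that remain without the muscle list the 3 values were 0.996, 0.992 and 0.995.

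**Figure D3:**
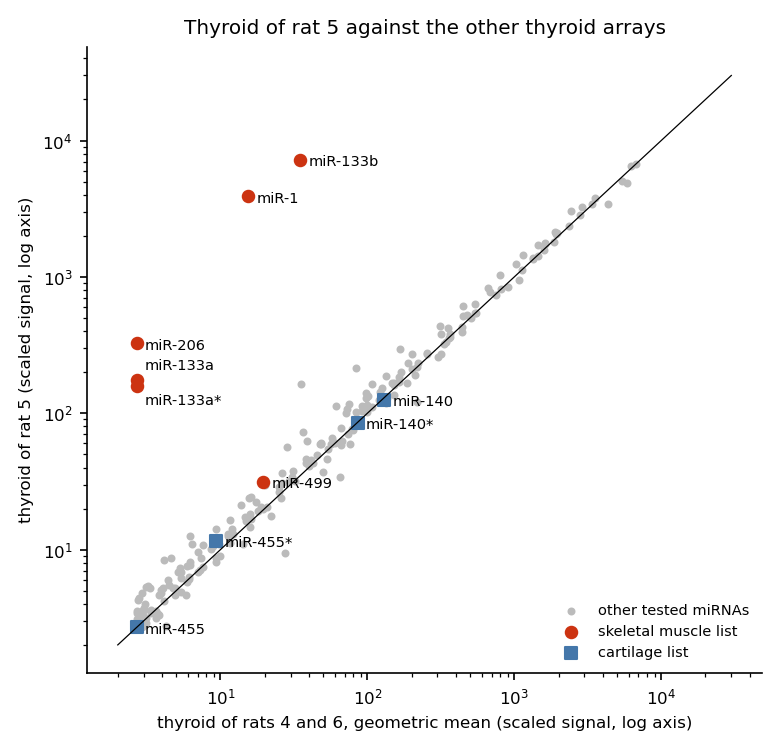
Scaled signal of the 345 tested miRNAs in the thyroid of rat 5 against the geometric mean of rats 4 and 6 (both log axes, values below the floor of 2.69 set to it), with the line of equality. miR-1, miR-133b, miR-206, miR-133a and miR-133a* lie far above the line, and the 4 cartilage miRNAs and miR-499 lie near it.

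Arrays of 1 organ that differed widely in muscle miRNAs occurred elsewhere too. The 3 arrays of an organ differed over 10-fold in miR-1, with at least 1 above a signal of 100, in 6 of the 55 organs. Optic nerve had 1989, 4.98 and 4.53, parotid gland 4386, 2123 and 15.1, Harderian gland 956, 355 and 13.7, and trachea 37.6, 24.1 and 599 in rats 4, 5 and 6. Brown adipose tissue was the sixth, at 397, 595 and 52.2. Optic nerve and trachea thus had 1 high array, and parotid gland, Harderian gland and brown adipose tissue had 2. In trachea the high array was that of rat 6, whose thyroid was low, and in rat 5 the trachea was low. Esophagus, whose wall holds striated muscle in the rat, was high on all 3 arrays at 7728, 8583 and 3195. Whether the signal on the thyroid array of rat 5 came from neighbouring muscle or from another source was not tested.

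Cartilage miRNAs stayed far below their trachea level on all 3 thyroid arrays. miR-140, the main miRNA of chondrocytes, gave 121, 126 and 139 in thyroid and 4653, 4122 and 4607 in trachea, whose wall is held open by cartilage rings. Its other strand miR-140* gave 90.4, 85.1 and 81.9 in thyroid and 5103, 4491 and 3771 in trachea. Esophagus had 96.9, 110 and 105 of miR-140 and tongue 83.7, 86.5 and 97.6, so that the thyroid arrays lay slightly above both and far below trachea. For miR-140* the thyroid arrays overlapped those of esophagus, at 91.7, 92.2 and 77.0, and lay above those of tongue. miR-455 and miR-455*, which also mark chondrocytes, were not detected in thyroid, while miR-455* gave 358, 435 and 268 in trachea. As a share of trachea in the same rat, miR-140 was at 2.59%, 3.05% and 3.01% and miR-140* at 1.77%, 1.89% and 2.17%. Set to the lowest signal of a detected miRNA on the same thyroid array, the undetected miR-455 and miR-455* could reach 32.5% and 3.53% of trachea on average, so that miR-455 says little here. The median over the 4 members was 2.90% with undetected values as measured or at the floor and 3.21% at these limits, but 14.7% after normexp correction.

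Against the other 54 organs miR-140 was lower by 0.47 (SE 0.14, limma adjusted p = 0.00273) and miR-140* by 0.70 (SE 0.14, adjusted p = 1.23e-05), but with scaling over all miRNAs the differences were 0.28 and 0.05. Thyroid stood at places 32 and 39 of 55. Against trachea the differences were -5.12 for miR-140 and -5.69 for miR-140*, or 34.8-fold and 51.6-fold. The array of rat 5, on which muscle miRNAs were high, was not the highest of the 3 for miR-140 or miR-140*. Of the 4 cartilage miRNAs 3 were lower than in the other organs and 0 higher, where 50.4% of all tested were lower. The call of miR-455 was lost without any 1 of the thyroid arrays (adjusted p = 0.0535 without rat 5), and also with the higher floor (0.242). Those of miR-140 and miR-140* were lost with normexp correction (0.248 and 0.128), and that of miR-140 in the authors' table (-0.32, 0.0602).

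The miRNAs of ciliated airway epithelium were not seen. miR-34b, miR-34c and miR-449a, which multiciliated cells use to build cilia, were not detected on any thyroid array. Trachea gave 288, 322 and 312 for miR-34b, 220, 263 and 236 for miR-34c, and 197, 154 and 111 for miR-449a. Thyroid was thus at least 25.7-fold lower for miR-34b, at least 20.0-fold lower for miR-34c and at least 12.5-fold lower for miR-449a. Each such bound sets the mean of trachea against the lowest signal of a detected miRNA on the thyroid arrays. The white blood cell miRNAs differed widely in their share of the cervical lymph node of the same rat, from 0.357% for miR-142-5p and 0.47% for miR-142-3p through 3.15% for miR-150 to 25.1% for miR-146a and 42.7% for miR-223 (means over 3 rats). Of thymus they reached from 0.259% (miR-142-5p) to 41.3% (miR-223), with a median of 12.4%.

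**Figure D4:**
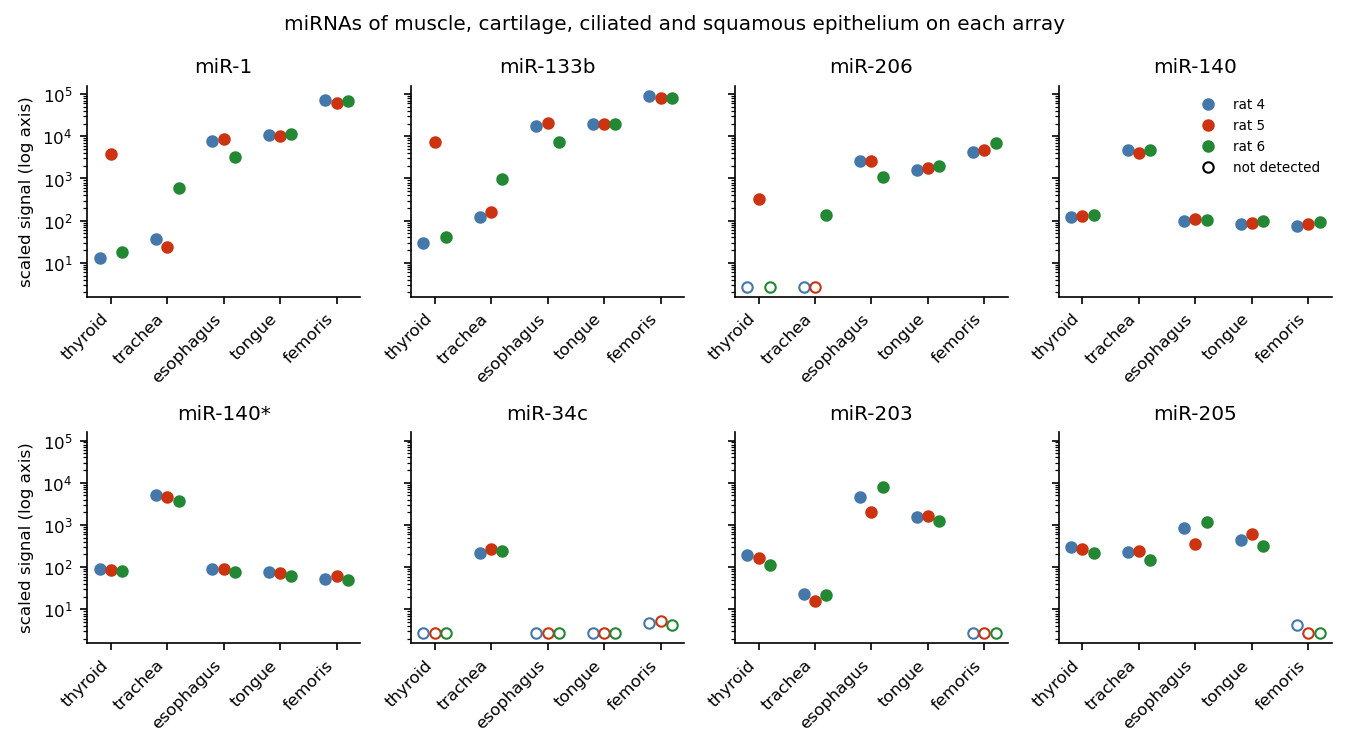
Scaled signal (log axis) of 8 miRNAs on each array of thyroid, trachea, esophagus, tongue and femoris muscle, coloured by rat, with open circles where the miRNA was not detected. In thyroid miR-1, miR-133b and miR-206 are high in rat 5 alone, miR-140 and miR-140* stay far below trachea in all 3 rats, and miR-34c is not detected.

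Against trachea alone, the organ that touches the gland, 73 miRNAs were higher in thyroid (21.2%) and 52 lower (15.1%). The balance depended on the processing, with 41 higher and 61 lower in the authors' table and 248 and 16 after normexp correction. Without rat 5 these numbers were 62 and 52. The largest upward were miR-335 (4.49), miR-3588 (at least 10.0-fold, since trachea did not show it), miR-135a (3.60, detected on 2 of the 3 trachea arrays), miR-7a (3.45) and miR-203 (2.94). The place of miR-3588 thus rests on trachea values below detection. miR-375 was higher by 2.00 (adjusted p = 0.00103) and miR-221 by 1.33 (adjusted p = 2.99e-05). The epithelial miR-200b (0.66, adjusted p = 0.559) and miR-205 (0.36, adjusted p = 0.675) did not pass. Downward the list was led by miR-34b_v15.0 (at least 32.3-fold), miR-34b, miR-34c and miR-449a, and then by miR-140*. All of these except miR-140* were not detected on any thyroid array, so that their places before it rest on values below detection.

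Against pituitary and adrenal gland, as the other endocrine organs, 69 miRNAs were higher (20%) and 116 lower (33.6%), and without rat 5 the numbers were 56 and 111. The majority turned with scaling over all miRNAs (168 higher and 80 lower), quantile normalization (122 and 95), the authors' table (117 and 93) and normexp correction (51 and 33). Upward stood the epithelial miR-205_v15.0 (5.68), miR-205 (5.43), miR-203 (at least 22.2-fold) and miR-200b (4.99), besides miR-1. The adrenal gland did not show miR-200b or miR-205, and pituitary gland gave 1476 ± 225 of miR-200b (SD, n = 3) beside 2011 ± 239 in thyroid, so that most of the difference of miR-200b came from the adrenal gland. Downward stood miR-376a (at least 22.3-fold), miR-379 (at least 24.1-fold), miR-431 (at least 15.3-fold), miR-127 (-6.01, detected on 1 thyroid array) and miR-410 (at least 14.5-fold), all from the imprinted Dlk1-Dio3 region. miR-335 did not pass against the mean of these 2 organs (0.31, adjusted p = 0.512), since pituitary lay above and adrenal gland below thyroid. miR-375 did not pass either (-0.85, adjusted p = 0.108), with pituitary gland at 5659 above and the adrenal gland at 129 below thyroid at 471, and miR-7a was lower by 4.48 (adjusted p = 5.56e-40).

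Against the 3 salivary glands, as exocrine glands of the same region, 70 miRNAs were higher (20.3%) and 128 lower (37.1%), and without rat 5 the numbers were 59 and 122. With scaling over all miRNAs they were 131 and 68, after quantile normalization 91 and 91, and after normexp correction 11 and 93. miR-335 led with 6.37 and was detected on 1 of the 9 salivary arrays, so that this value rests mostly on salivary signals below detection. miR-10a-5p (4.80), which lies in a HOX cluster and marks position along the body, miR-204 (2.88), miR-384-5p and the endothelial miR-126 (2.37) followed. miR-384-5p was not detected in any salivary gland and gave no bound above 1. Downward stood miR-3584-5p (at least 16.0-fold), miR-379 (at least 3.57-fold), miR-327 (at least 2.73-fold), miR-376a (at least 2.58-fold) and miR-376b-3p (at least 2.52-fold). The epithelial miR-200a and miR-141 were lower in thyroid than in these glands by 1.63 (adjusted p = 0.00487) and 1.07 (adjusted p = 0.00372).

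The remaining lists were set against the other 54 organs in the same way, beside 16.8% of all tested that were higher and 50.4% that were lower. Endothelial miR-126 gave 1843, 1780 and 1398 (difference 1.37, adjusted p = 5.53e-09) and took the ninth place, and with miR-126* (1.07) both members were higher. All 3 mesenchymal miRNAs were higher, with miR-199a-3p at 0.69 and miR-214 at 0.93, but the call of miR-199a-3p was lost without any 1 of the thyroid arrays (adjusted p = 0.0959 without rat 5). After normexp correction miR-126* (0.34), miR-199a-3p (0.42) and miR-214 (0.29) did not pass. The smooth muscle miRNAs miR-143 (-0.04) and miR-145 (0.16) did not pass, and 0 of 3 tested did. With scaling over all miRNAs miR-143 (0.71) and miR-145 (0.90) were called higher. All 3 tested members of the sensory and secretory cluster were higher, with miR-96 (226, 235 and 160) at 2.07 and miR-183 at 2.00. The third, miR-182 (0.69), was not detected on any thyroid array. After normexp correction neither miR-96 (0.55, adjusted p = 0.14) nor miR-183 (0.37, adjusted p = 0.671) passed. Of the white blood cell list 2 of 5 were lower, and neither miR-146a (0.34) nor miR-223 (-0.25) passed. miR-146a was called higher with scaling over all miRNAs (1.09), quantile normalization (0.56) and in the authors' table (0.45). The red cell list had 0 of 3 past the threshold, with miR-451 at 0.76 and a wide spread between rats, and miR-144 not detected. miR-451 was called higher with scaling over all miRNAs (1.47). In brown fat miRNAs 0 of 4 passed, with miR-378 at -0.13 and miR-365 at -0.05.

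Where 50.4% of all tested were lower, all 6 neuronal miRNAs were called lower, but 5 of them, all except miR-128, were not detected in thyroid, so that their median of -1.66 depends on the floor. The 3 of myelin were lower too, with miR-338 (-0.72) and miR-219-5p (not detected, at least 1.67-fold lower). The call of miR-338 was lost without rat 5 or rat 6 (adjusted p = 0.0612 and 0.0816). miR-338 and miR-129 lay above the median of the other organs, by 0.10 and 0.19. The Dlk1-Dio3 cluster had 27 of 29 tested members lower and 0 higher, with a median of -1.25 that depends on the floor, since 27 of the 31 listed were not detected on any thyroid array, and 1 member, miR-434, was detected on all 3 thyroid arrays (22.9, 29.7 and 17.5). miR-434 (-0.52) and miR-494 (-0.46) did not pass. Of the HOX list miR-10a-5p was higher (1.20), miR-10b (0.63) did not pass and 3, not detected in thyroid, were lower. miR-10b passed in 6 alternatives, with 1.34 under scaling over all miRNAs, and miR-10a-5p did not pass after normexp correction (0.48, adjusted p = 0.263). Liver and pancreas miRNAs, miR-122 and miR-216a among them, were not detected in thyroid. The broadly expressed families differed little with the scaling used: miR-29b (0.39), miR-30c (0.37) and miR-30a (0.34) were higher and miR-29a (0.11) did not pass. Without rat 5 none of these 3 calls held (adjusted p = 0.0651, 0.13 and 0.141). With the striated muscle organs left out of the reference miR-29b did not pass (0.16). miR-29a was called higher with scaling over all miRNAs (0.85) and quantile normalization (0.37).

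**Figure D5:**
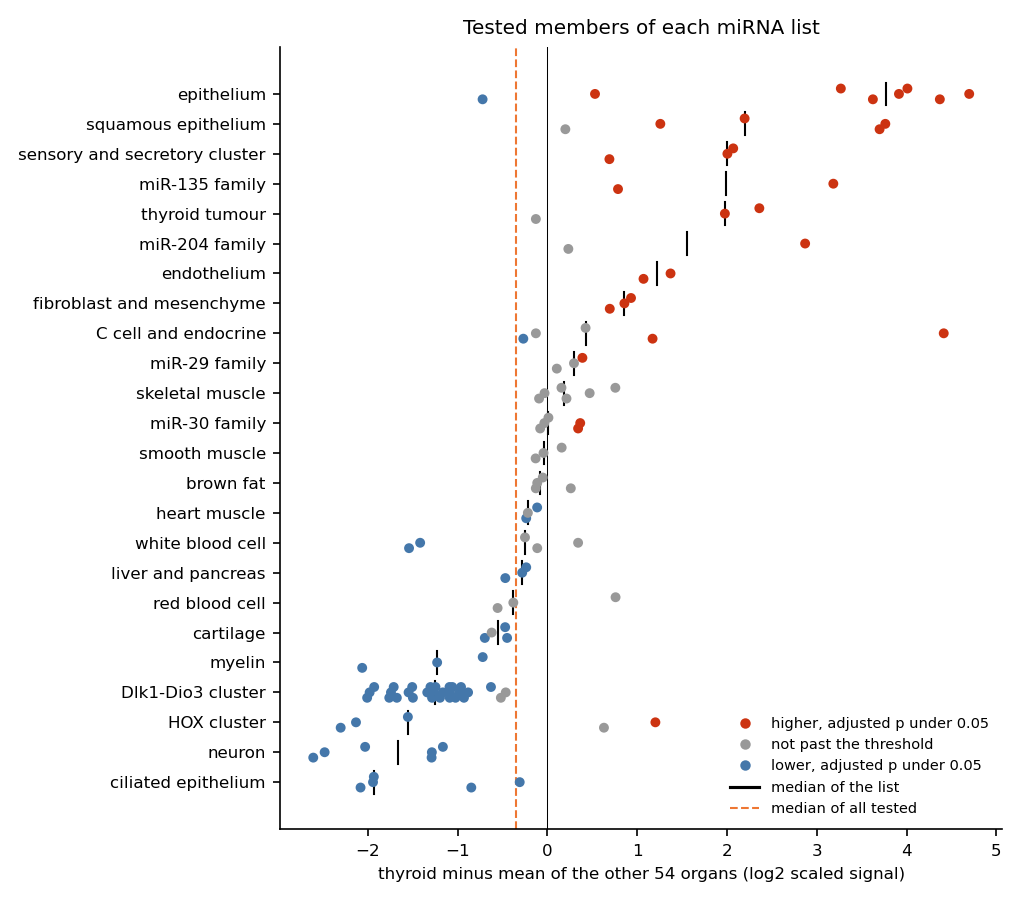
Difference between thyroid and the mean of the other 54 organs (log2 scaled signal) for the tested members of each list, coloured by whether they passed the threshold, with the median of each list (black) and of all 345 tested (dashed, -0.35). The epithelial list has its median at 3.77, the cartilage list at -0.54 and the ciliated list, not detected in thyroid, at -1.93, and the skeletal muscle list shows no member past the threshold.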

How the data were processed

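Agilent 1-colour miRNA arrays were read from the scanner output that the authors deposited, made with Agilent Feature Extraction 10.7.3 per the submitters' notes. The deposited intensity behind the main values is the processed signal of each spot (background-subtracted by the scanner software), and spot flags were used with it. The median signal and median background of each spot served the normexp alternative, and the total signal served the check of the authors' table. The authors' normalized table holds an intensity per miRNA equal to the scanner's total signal times 1 factor per array (0.411 to 10.46), and served as an alternative. Outlier spots were dropped, spots averaged per probe and probes per miRNA (717 miRNAs). Because most of the miRNAs went undetected, the 75th percentile used for scaling was taken over those 37 that each of the 180 arrays showed, and values were set to a floor of 2.69 and put on the log2 scale. limma 3.58.1 (R 4.3.3) fitted 1 term per organ over the arrays of perfused rats (110 residual degrees of freedom). On simulated data 86% of changes of 1 and 98% of changes of 2 upward were called, and 92% and 100% downward, beside 0.246% of unchanged miRNAs. Each of the 10 simulated runs planted 20 changes among 345 miRNAs, far fewer than the 58 higher and 174 lower calls on the measured arrays. Whether the simulated rates hold with so many calls was not tested. Nor was it tested for miRNAs below detection in thyroid, or where 1 thyroid array stands apart.

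Equal rat numbers mark the same animal, which pairs the samples. Deviations from the organ means correlated on average at 0.0369, 0.0708 and 0.0613 within rats 4, 5 and 6, and at -0.028 between rats. The fit with a term for the rat was an alternative. Normexp used the median signal of each spot, with an offset of 50, because the columns used here include no mean signal. The offset was added before scaling, so that it weighed more on dim arrays. Its part in the normexp results was not tested. The number of arrays limits the precision.

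The named miRNAs were the 12 largest called upward, detected on all thyroid arrays and higher in every rat, the 8 largest downward detected on at least 50% of the other arrays, those with thyroid in the first 3 places, all members of the muscle, cartilage, endocrine and tumour lists, 2 of each other list by thyroid signal, and 5 each way of each further comparison. Others were chosen after their values were seen. Members and lists were chosen with earlier results of these data known. Sequences come from RefSeq (GRCr8).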

Additional observations from a re-analysis of the deposited data

How the results depend on the processing

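In all, 19 alternatives were run. None changed the direction of miR-335, miR-221, miR-375, miR-204, miR-205 or the miR-200 miRNAs detected in thyroid, where these were tested. The limit to miRNAs detected on at least 50% of the arrays covered 46 of the 70 named results. With a replicate block for the rat 61 miRNAs were higher and 176 lower than in the other 54 organs, and of the named calls it changed only that of miR-7b, which passed (0.43, adjusted p = 0.0497). miR-7b, which no thyroid array showed, also passed with scaling over all miRNAs (1.31), quantile normalization (1.28) and the authors' table (0.95). Leaving out each thyroid array in turn gave 49 to 56 higher and 142 to 153 lower. Scaling over all miRNAs gave 136 higher, 168 against pituitary and adrenal gland, and 131 higher and 68 lower against the salivary glands. Quantile normalization gave 90 and, against pituitary and adrenal gland, 122 higher, and in the authors' values there were 117 there and 41 against trachea. Normexp gave 18 higher and 15 lower, against trachea 248 and 16, 33 lower against pituitary and adrenal gland, and 11 higher against the salivary glands. Under normexp 27 of 70 named results kept their direction but lost their call: miR-7a, miR-7a-2*, miR-10a-5p, miR-29b, miR-30a, miR-30c, miR-34b and its older version, miR-96, miR-122, miR-126*, miR-129, miR-135a, miR-140, miR-140*, miR-183, miR-199a-3p, the older version of miR-208, miR-214, miR-216a, miR-219-5p, miR-222, miR-290, miR-329, miR-455, miR-652* and miR-3584-5p. The calls of miR-122 and miR-208 were also lost without any 1 of the thyroid arrays. miR-434 passed without rat 5 and in several other alternatives, among them normexp (-0.86) and the higher floor (-1.17). Among the 144 miRNAs detected on at least 50% of the arrays, 44, 57, 59 and 54 were higher in the 4 comparisons. In the same order 31, 20, 24 and 44 were lower, where fewer were tested. miRNAs with their peak in thyroid numbered 3, 1 and 2 with scaling over all miRNAs, quantile normalization and the authors' table. The cartilage share of 2.90% was 3.59%, 3.09%, 14.7% and 2.20% with scaling over all miRNAs, quantile normalization, normexp and the authors' table. The muscle share of 2.79% was 0.0507% without rat 5 and 4.10% or 4.11% without rat 4 or 6, and 2.87% against all 9 limb muscle arrays, a reference chosen after seeing the data. With the median of the other 54 organs as reference 40 of 70 named results were counted as moved, 28 as the same and 2 as reversed. The cause of these shifts was not tested.

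Sign changes numbered 58 over the named results, and 39 of these concerned differences called in neither analysis, such as miR-1 (-1.91 without rat 5). The other 19, with a call in at least 1 of the analyses, were these. Scaling over all miRNAs gave 0.28 for miR-140, 0.051 for miR-140*, 0.60 for miR-7a-1*, 0.62 for miR-146b, 0.71 for miR-143, 0.50 for miR-223, 0.62 for miR-378, 0.70 for miR-365 and 0.028 for miR-338. Quantile normalization gave 0.58 for miR-7a-1*. Normexp gave 0.0093 for miR-208 and -0.055 for miR-135b. The higher floor gave -0.45 for miR-7b, -0.20 for miR-211 and -0.29 for miR-135b. The median of the other organs as reference gave 0.19 for miR-129 and 0.10 for miR-338. Without 1 thyroid array miR-133a* ranged from -1.80 (without rat 5) to 1.13, and miR-206 from -2.09 (without rat 5) to 1.37. Signals near background limit what miRNAs at the floor can show.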
